A study of Mus musculus with 12 samples.

Results

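The response of the wild-type (WT) mouse heart to 1 week of pressure overload was read from the 3 WT hearts collected after transverse aortic constriction (TAC) and the 3 WT hearts collected after a sham operation, 6 of the 12 hearts sequenced. All genes of the joint count table that passed a low-count filter were followed, 14094 of 19308. The mice were C57BL/6, described as male in the methods, and were 8 weeks old at surgery, when the aortic arch was tied down against a needle that was then withdrawn, or exposed without a ligature in the sham group. Hearts were frozen 1 week later, and total RNA of the heart was sequenced without sorting cells, so that a lower level of a transcript in fewer cells and in less RNA per cell cannot be told apart. The other 6 hearts came from global *Fabp3* knockout (F3-KO) mice of the same strain, 3 after TAC and 3 after sham surgery. They entered the fit that estimates the spread between hearts and are otherwise used only where stated.

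TAC narrows the aorta, so the left ventricle must pump against a raised pressure and its wall thickens. Cardiomyocytes under such load are known to switch on natriuretic peptides and fetal contractile isoforms, to turn down some ion channels and to burn less fat, while fibroblasts divide and lay down collagen and macrophages accumulate. These processes belong to different cells and need not run at the same pace in every animal, and the strength of a surgical constriction can vary.

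Estimated counts summed to 10424334 to 12633776 per WT heart. With these totals a floor of 3 counts corresponds to 0.237 to 0.288 CPM, the count scaled to library size. All 12 ventricular cardiomyocyte markers were detected, and their summed level was 89720, 66330 and 89770 CPM in sham hearts 1 to 3 and 73140, 96120 and 89730 CPM in TAC hearts 1 to 3. Sham heart 2 was the lowest of the 6, and it also had the highest neutrophil marker sum, 53.99 CPM against 10 and 11.7 CPM in the other sham hearts. Red blood cell markers, which follow the blood left in the tissue, summed to 1765, 630.4 and 1647 CPM in sham hearts 1 to 3 and 4258, 2056 and 321 CPM in TAC hearts 1 to 3. These sums move with some of the families described below, and their part in those results was not tested. The labels name no surgical or sequencing batch.

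At a Benjamini-Hochberg adjusted p under 0.05, edgeR's quasi-likelihood test called 0 of 14094 genes higher (0%) and 0 lower (0%) after TAC. The gene nearest to the threshold was *Nppb*, which encodes B-type natriuretic peptide, with an adjusted p of 0.0679. At an unadjusted p under 0.05 the same test listed 518 genes as higher (3.68% of those tested) and 367 as lower (2.6%), 885 in all, and all further uses of an unadjusted p refer to this test. DESeq2's Wald test gave an adjusted p under 0.05 to 19 higher genes (0.12% of 15835) and 7 lower genes (0.0442%), and 998 genes had an unadjusted p under 0.05 with it. The limma-trend fit called 1 gene, *Nppb*. Because edgeR called no gene, the families below are described by their medians, by the members with an unadjusted p under 0.05 and by DESeq2's calls, and no member is said to have risen or fallen. Some members are named because of their values, such as DESeq2's calls and *Cilp*, *Thbs1*, *Fn1*, *Fos*, *Jun*, *Top2a*, *Serpina3n* and *Lcn2*, and these were chosen after their values were seen.

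**Figure D1:**
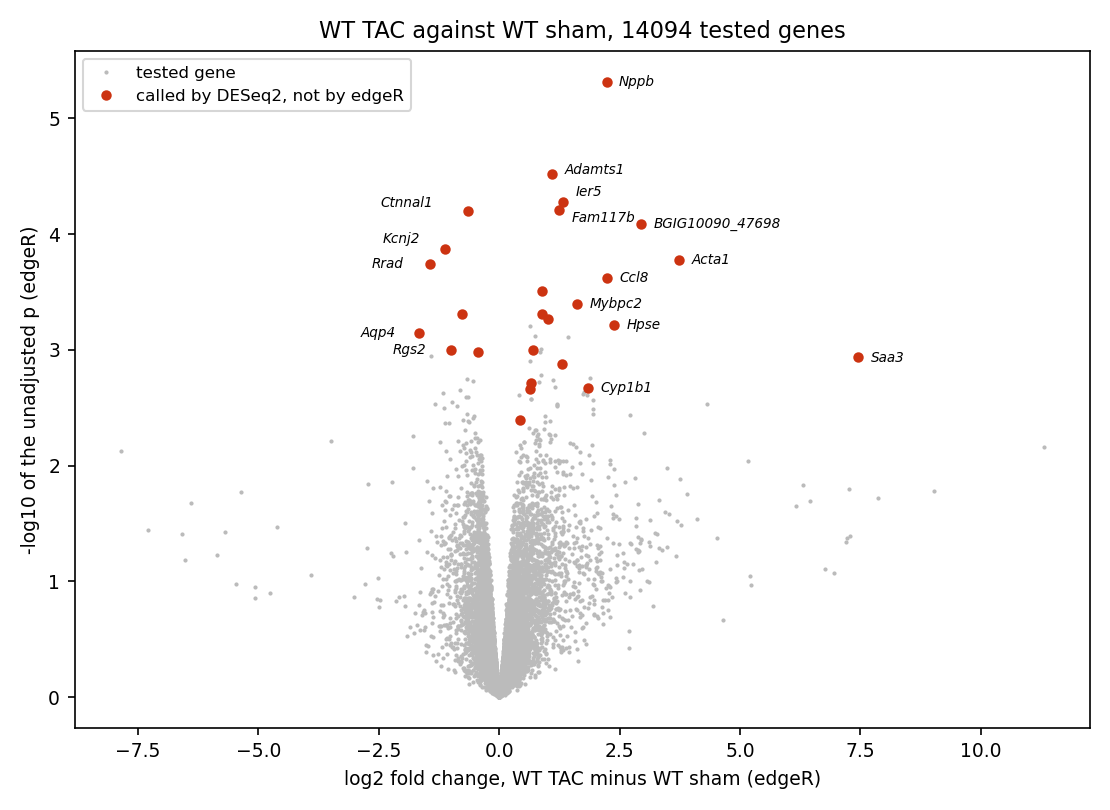
Each point is 1 of the 14094 tested genes, with the log2 fold change of WT TAC against WT sham hearts on the x axis and -log10 of the unadjusted edgeR p on the y axis. The 26 red points are DESeq2's calls (16 of them are named), none of which edgeR called, and Nppb lies highest.

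Of the 26 genes called by DESeq2, 25 had TAC hearts that did not overlap the sham hearts. Over all tested genes, all TAC hearts lay above all sham hearts in 4.7% and below them in 4.43%. The 26 were picked by a test on these same hearts, so the count of 25 follows largely from that choice and supports nothing further. The edgeR adjusted p of the 26 genes ranged from 0.0679 to 0.782. Leaving out 1 WT heart at a time, DESeq2 called 15 to 86 genes, and 9 of the 26 were called in every one of these 6 fits: *Nppb*, *Acta1*, *Ier5*, *Adamts1*, *Fam117b*, BGIG10090_47698, *Rrad*, *Kcnj2* and *Ctnnal1*. The count was 86 without sham heart 2, 60 without TAC heart 2 and 46 without TAC heart 3, and was 15 without sham heart 3, 16 without TAC heart 1 and 28 without sham heart 1. BGIG10090_47698 and BGIG10090_47919 are genes predicted by the sequencing centre and carry no symbol.

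*Nppb* and skeletal actin transcripts were higher in every TAC heart, the third included, than in any sham heart. *Nppb* measured 128, 95.05 and 155 CPM in sham hearts 1 to 3 and 776, 411 and 589 CPM in TAC hearts 1 to 3 (log2 fold change 2.23 ± 0.29 (SE), edgeR adjusted p = 0.0679, DESeq2 adjusted p = 5.04e-12). The lowest TAC heart was above the highest sham heart by more than the whole range of the sham hearts. *Acta1*, the skeletal isoform of alpha-actin that the fetal heart uses, measured 156, 44.9 and 156 CPM in sham hearts 1 to 3 and 3202, 762 and 800 CPM in TAC hearts 1 to 3 (log2 fold change 3.74 ± 0.70 (SE), edgeR adjusted p = 0.284, DESeq2 adjusted p = 0.000619). TAC heart 1 stood far above the other TAC hearts, which lay close together and still well above all sham hearts.

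The promoter windows of these genes are shown because both genes are made by cardiomyocytes and were called in every DESeq2 fit. They come from RefSeq on build GRCm38.p6, at chr4:147985650-147985949 on the plus strand for *Nppb* and at chr8:123894726-123895025 on the minus strand for *Acta1*, and run from 250 bases before to 50 bases after the gene's start, read along the gene's strand. Capitals mark matches, on either strand, to the MCAT element (CATTCC), which binds TEAD factors, the GATA element (AGATAA) and the CArG box, which binds serum response factor.
Nppb: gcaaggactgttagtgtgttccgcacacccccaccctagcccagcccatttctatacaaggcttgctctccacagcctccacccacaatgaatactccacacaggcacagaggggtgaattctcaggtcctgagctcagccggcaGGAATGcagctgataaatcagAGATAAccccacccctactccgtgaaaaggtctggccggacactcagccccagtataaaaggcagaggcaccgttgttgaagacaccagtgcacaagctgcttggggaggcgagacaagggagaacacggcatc
Acta1: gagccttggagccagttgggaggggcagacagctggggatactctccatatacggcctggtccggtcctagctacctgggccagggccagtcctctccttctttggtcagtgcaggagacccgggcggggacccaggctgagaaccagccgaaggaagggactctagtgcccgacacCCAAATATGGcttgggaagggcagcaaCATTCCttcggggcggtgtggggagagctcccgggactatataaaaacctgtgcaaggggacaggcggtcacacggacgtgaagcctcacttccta

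In *Nppb* an MCAT match on the opposite strand begins 105 bases before the start and a GATA match 84 bases before it. In *Acta1* a CArG match begins 73 bases and an MCAT match 46 bases before the start. Among 27025 RefSeq windows of this length, 14.6% held an MCAT match, 11.4% a GATA match, 7.93% an AP-1 match (TGANTCA) and 1.57% a CArG match. Of the other genes called in every DESeq2 fit, windows were found for *Ier5*, *Adamts1*, *Fam117b*, *Kcnj2* and *Ctnnal1*, and these 5 held none of the 4 motifs in these letters. The matches describe the letters of the windows and were not tested for binding.

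Of the other hypertrophy markers described here, *Cilp* separated the groups without overlap and the rest did not. *Nppa*, atrial natriuretic peptide, measured 97.03, 37.1 and 200 CPM in sham hearts 1 to 3 and 1114, 143 and 614 CPM in TAC hearts 1 to 3 (log2 fold change 2.48 ± 1.00 (SE), edgeR adjusted p = 0.782), and TAC heart 2 lay within the sham range. *Ankrd1*, a stretch-responsive cofactor of the sarcomere, measured 1409, 973 and 1310 CPM in sham hearts 1 to 3 and 4621, 1303 and 3294 CPM in TAC hearts 1 to 3 (log2 fold change 1.32 ± 0.44 (SE), edgeR adjusted p = 0.782). Here too TAC heart 2 lay among the sham hearts while TAC hearts 1 and 3 were far above them. *Myh7*, the slow fetal myosin heavy chain, ranged from 347 to 9179 CPM among sham hearts and was 4383, 1285 and 21580 CPM in TAC hearts 1 to 3 (unadjusted p = 0.466). *Myh6*, the adult fast isoform, was 31160, 16250 and 34080 CPM in sham hearts 1 to 3 and 25920, 34420 and 20410 CPM in TAC hearts 1 to 3, with a log2 fold change of -0.01 ± 0.29 (SE), so neither myosin separated the groups. *Cilp*, cartilage intermediate layer protein of cardiac fibroblasts, measured 3.01, 3.76 and 4.66 CPM in sham hearts 1 to 3 and 22.3, 9.86 and 14 CPM in TAC hearts 1 to 3 (log2 fold change 2.01 ± 0.75 (SE), edgeR adjusted p = 0.782).

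Over the 23 tested fetal and hypertrophy markers the median log2 fold change was 0.57, against 0 over all tested genes, and 20 had a fold change above 0. The median was 0.36 without TAC heart 1 and 0.37 without TAC heart 3. Unadjusted p was under 0.05 for 5 higher members and no lower one, against 3.68% and 2.6% of all tested genes. DESeq2 called 2 members, *Nppb* and *Acta1*. In 4 members (17.4%) all TAC hearts lay above all sham hearts, as did 662 of all tested genes (4.7%), while the opposite arrangement held for 625 of all tested genes (4.43%) and no member. The median difference from the sham mean was 0.51, 0.18 and 0.63 on the log2 scale in TAC hearts 1 to 3, where the sham hearts themselves gave 0.03, -0.20 and 0.19. TAC heart 3 had the highest median of the 3 TAC hearts. The 9 tested genes of the natriuretic peptide system had a median of 0.15, which was -0.16 without TAC heart 1, and apart from *Nppa* and *Nppb* no member had an unadjusted p under 0.05.

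**Figure D2:**
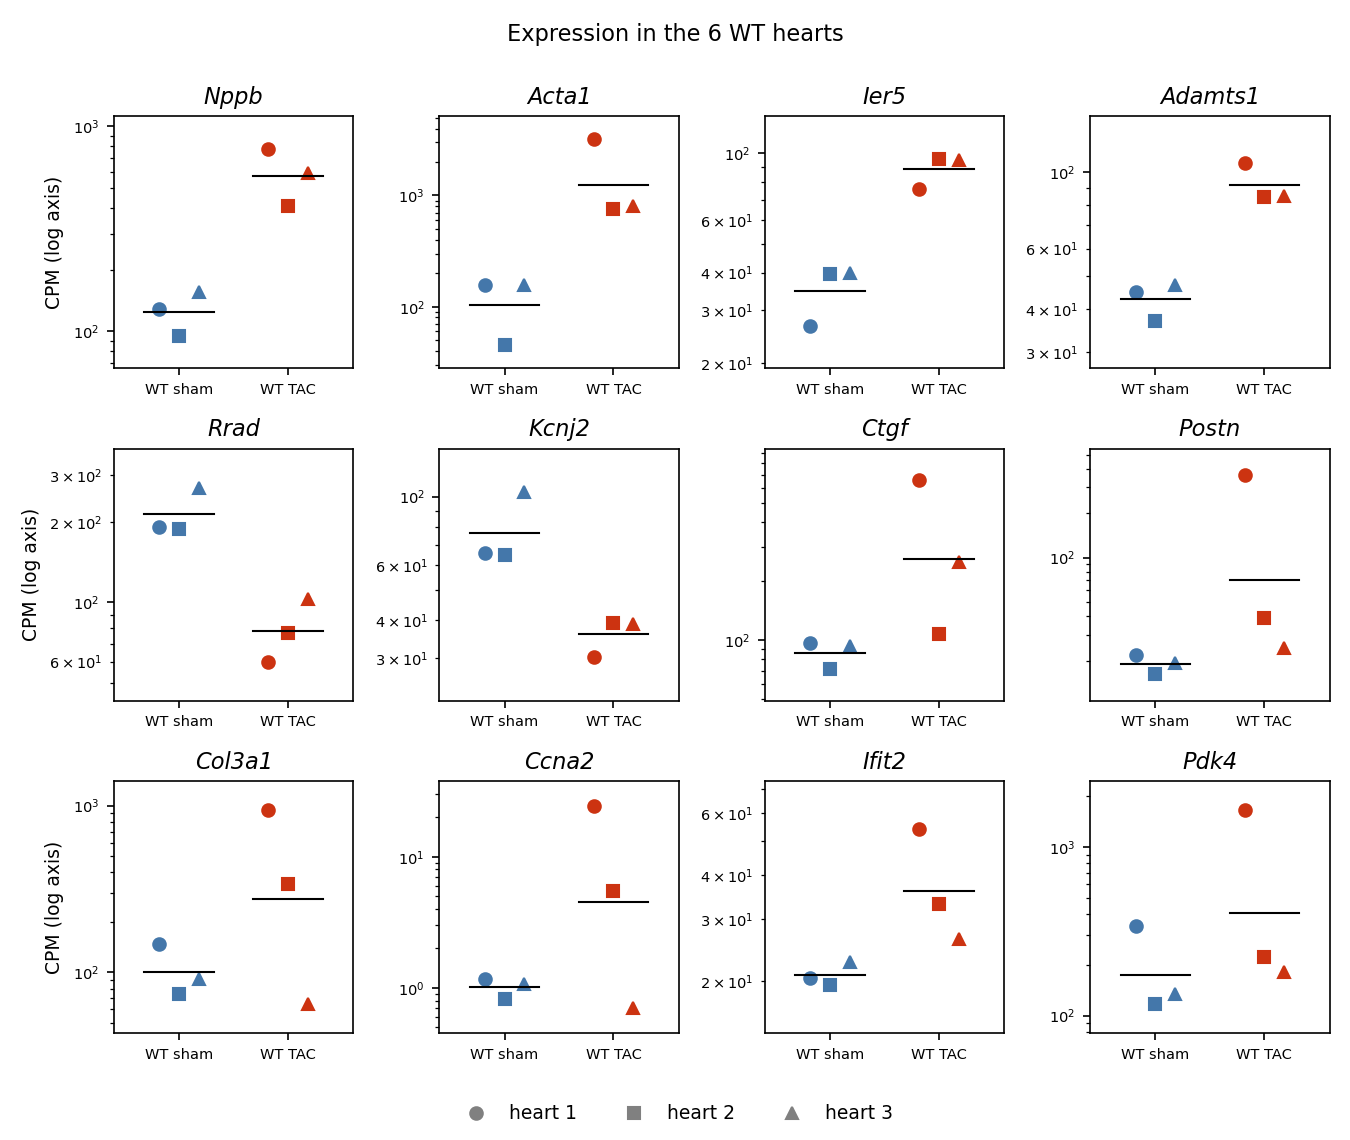
CPM of 12 genes in the 6 WT hearts on log axes, with sham hearts in blue, TAC hearts in red, the heart number given by the symbol and the geometric mean of each group as a line. In Nppb, Ier5, Adamts1, Rrad and Kcnj2 TAC heart 3 (triangle) lies with the other TAC hearts, and in Acta1 it lies with TAC heart 2, under TAC heart 1, whereas in Col3a1 and Ccna2 it lies at or under the sham hearts.

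*Ier5* and *Adamts1* had nearly equal levels in the 3 TAC hearts. *Ier5*, an immediate early gene, measured 26.6, 39.7 and 40.01 CPM in sham hearts 1 to 3 and 75.9, 95.7 and 95.02 CPM in TAC hearts 1 to 3 (log2 fold change 1.33 ± 0.22 (SE), edgeR adjusted p = 0.179). *Adamts1*, a secreted protease that cleaves proteoglycans, measured 44.97, 36.9 and 47.05 CPM in sham hearts 1 to 3 and 106, 84.9 and 85.2 CPM in TAC hearts 1 to 3 (log2 fold change 1.10 ± 0.17 (SE), edgeR adjusted p = 0.179). For both, the TAC hearts spanned a narrow range well above all sham hearts. *Fam117b* was 22.7, 29.7 and 28.96 CPM in sham hearts 1 to 3 and 86.5, 45.6 and 59.8 CPM in TAC hearts 1 to 3. *Tnfrsf12a*, the receptor for the cytokine TWEAK, was 33.4, 40.1 and 53.4 CPM and 83.1, 68.5 and 84.8 CPM in the same order. *Mybpc2*, the fast skeletal myosin-binding protein C, was 17.3, 17.96 and 27.7 CPM and 90.9, 36.2 and 66.6 CPM, with TAC hearts 1 and 3 above TAC heart 2, the order also seen for *Ankrd1*.

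The remaining higher calls were *Ankrd23*, *Arrdc2*, *Ccl8*, *Cmklr1*, *Cyp1b1*, *Hpse*, *Nuak1*, *Slc38a2*, *Tnnc1*, *Saa3* and both predicted genes. *Ccl8*, a monocyte-attracting chemokine, measured 1.65, 2.66 and 1.23 CPM in sham hearts 1 to 3 and 7.37, 12.5 and 6.201 CPM in TAC hearts 1 to 3 (log2 fold change 2.24 ± 0.43 (SE), edgeR adjusted p = 0.339). *Hpse*, the heparan sulphate-cleaving enzyme heparanase, was 0.583, 0.275 and 0.982 CPM in sham hearts and 3.53, 4.32 and 2 CPM in TAC hearts. *Saa3*, an acute-phase protein, was listed at 0 in all sham hearts and at 1.02, 4.23 and 0.2 CPM in TAC hearts 1 to 3, of which the last is under the floor. The floor of 3 counts per library is scaled by total counts alone, and on that scale the mean *Saa3* level of the TAC hearts was 1.78 CPM, at least 6.2-fold higher than the highest floor of the sham hearts. *Cyp1b1* was the single call whose groups overlapped, with 7.09, 11.3 and 5.97 CPM in sham hearts and 48.6, 10.8 and 27.9 CPM in TAC hearts.

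The 7 lower calls were *Rrad*, *Kcnj2*, *Rgs2*, *Phka1*, *Ctnnal1*, *Rnf128* and *Aqp4*. *Rrad*, a small GTPase that holds back the L-type calcium channel, measured 192, 189 and 269 CPM in sham hearts 1 to 3 and 59.9, 76.8 and 103 CPM in TAC hearts 1 to 3 (log2 fold change -1.44 ± 0.27 (SE), edgeR adjusted p = 0.284). *Rgs2*, which shortens signalling through Gq-coupled receptors, measured 91.1, 91.6 and 77.7 CPM in sham hearts 1 to 3 and 29.97, 57.5 and 42.9 CPM in TAC hearts 1 to 3 (log2 fold change -0.998 ± 0.23 (SE), edgeR adjusted p = 0.5896). In both, every TAC heart was below every sham heart, and TAC heart 1 was the lowest. *Phka1*, a regulatory subunit of phosphorylase kinase, was 58.5, 97.9 and 93.4 CPM in sham hearts 1 to 3 and 50.5, 48.4 and 46.6 CPM in TAC hearts 1 to 3. *Ctnnal1* was 49.6, 49.9 and 46.1 CPM and 32.1, 28.98 and 32.2 CPM in the same order, and *Aqp4*, a water channel, was 11.9, 8.62 and 7.77 CPM and 2.98, 3.88 and 2.1 CPM. The TAC values of *Phka1* and *Ctnnal1* lay within a few CPM of each other.

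Most potassium channel genes had a fold change below 0. Of 19 tested, 15 had a fold change below 0, and the median was -0.20. Unadjusted p was under 0.05 for 4 on the lower side and 1 on the higher side, against 2.6% and 3.68% of all tested genes. In 4 members (21.1%) every TAC heart was below every sham heart, against 4.43% of all tested genes. The median was -0.08 without sham heart 3 and -0.34 without sham heart 2, and sham heart 2 itself, at -0.28, was lower than TAC hearts 2 and 3 in medians of -0.50, -0.15 and -0.16 over TAC hearts 1 to 3. *Kcnj2*, the channel of the inward rectifier current that sets the resting potential, measured 65.95, 64.98 and 103 CPM in sham hearts 1 to 3 and 30.3, 39.2 and 38.9 CPM in TAC hearts 1 to 3 (log2 fold change -1.11 ± 0.20 (SE), edgeR adjusted p = 0.272, DESeq2 adjusted p = 0.000797). *Kcnd2*, a channel of the transient outward current, measured 32.5, 15.5 and 24.4 CPM in sham hearts 1 to 3 and 13.7, 9.95 and 12.9 CPM in TAC hearts 1 to 3 (log2 fold change -0.98 ± 0.26 (SE), edgeR adjusted p = 0.76). For both channels the 3 TAC hearts had similar levels. *Kcnip2*, the accessory subunit of that current, was 299.8, 153 and 317 CPM in sham hearts and 163, 279 and 236 CPM in TAC hearts, and its groups overlapped. *Kcna5* ran the other way, at 39.1, 47.1 and 35.7 CPM in sham hearts and 73.4, 54.9 and 51.3 CPM in TAC hearts (unadjusted p = 0.0146).

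The 21 calcium handling genes had a median of -0.05 with 10 fold changes above 0, no unadjusted p under 0.05 and no DESeq2 call. Over all genes the shares were 3.68% higher and 2.6% lower by unadjusted p, and 0.12% and 0.0442% by DESeq2. With shares this small, the lack of such members in a family of this size says little. *Atp2a2*, the calcium pump of the sarcoplasmic reticulum, was 14630, 9717 and 17430 CPM in sham hearts and 7856, 12990 and 10950 CPM in TAC hearts, where sham heart 2 lay among the TAC hearts (log2 fold change -0.39 ± 0.25). *Casq2*, which stores calcium in that compartment, was 975, 636 and 1055 CPM and 1088, 1375 and 1082 CPM, and *Cacnb2*, a subunit of the L-type channel, was 94.2, 91.5 and 110 CPM and 45.7, 97.5 and 78.02 CPM, each in the order sham then TAC hearts 1 to 3. The 23 adult sarcomere and Z-disc genes had a median of 0.18, which was 0.06 without TAC heart 3 and 0.11 with limma-trend. Among them *Tnnc1*, cardiac troponin C, was 2297, 1858 and 1925 CPM in sham hearts and 2845, 3407 and 3191 CPM in TAC hearts and was called by DESeq2 (adjusted p = 0.004). *Mybpc3*, the cardiac myosin-binding protein C, was 3581, 2236 and 4353 CPM and 4668, 4653 and 5480 CPM. *Nebl*, a Z-disc protein, had the opposite sign (-0.36 ± 0.16).

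Matrix genes differed widely between TAC hearts. All 21 tested collagen genes had a fold change above 0, with a median of 0.98 that was 0.47 without TAC heart 1. On the higher side 4 had an unadjusted p under 0.05, against 3.68% of all tested genes. The median difference from the sham mean was 1.68, 0.81 and -0.11 in TAC hearts 1 to 3. TAC heart 1 was above every sham heart for 20 of the 21 collagens and TAC heart 2 for 19, but TAC heart 3 for only 2, against 31.7%, 23.6% and 22.2% of all tested genes. *Col1a1*, the main chain of type I collagen, measured 89.5, 75.6 and 90.4 CPM in sham hearts 1 to 3 and 466, 270.5 and 75.2 CPM in TAC hearts 1 to 3 (log2 fold change 1.67 ± 0.77 (SE), edgeR adjusted p = 0.782). *Col3a1* measured 148, 74.5 and 91.8 CPM in sham hearts 1 to 3 and 944, 341 and 64.3 CPM in TAC hearts 1 to 3 (log2 fold change 2.10 ± 0.88 (SE), edgeR adjusted p = 0.782). For both chains TAC heart 3 was below all 3 sham hearts, so the groups overlapped although TAC hearts 1 and 2 were far above. Above all sham hearts in every TAC heart were 2 collagens (9.52%), against 4.7% of all tested genes. One of them was *Col14a1*, a fibril-associated collagen, at 13.8, 17.4 and 11.1 CPM in sham hearts and 40.9, 25.98 and 18.4 CPM in TAC hearts.

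Matricellular and glycoprotein genes, which signal between matrix and cells, had a median of 1.07 over 24 genes, and 0.44 without TAC heart 1. All TAC hearts lay above all sham hearts in 10 of them (41.7%), the highest share of the 30 families, against 4.7% of all tested genes. These 10 include *Cthrc1*, for which the sham hearts and TAC heart 3 were under the floor. The median was 1.605, 0.71 and 0.31 in TAC hearts 1 to 3, so that TAC heart 3 kept part of the difference here. *Ctgf*, connective tissue growth factor, measured 97.1, 71.5 and 93.8 CPM in sham hearts 1 to 3 and 654, 108 and 251 CPM in TAC hearts 1 to 3 (log2 fold change 1.95 ± 0.52 (SE), edgeR adjusted p = 0.76). *Postn*, periostin of activated fibroblasts, measured 21.8, 16.2 and 19.4 CPM in sham hearts 1 to 3 and 361, 39.02 and 24.4 CPM in TAC hearts 1 to 3 (log2 fold change 2.89 ± 1.09 (SE), edgeR adjusted p = 0.782). TAC heart 1 set most of the *Postn* difference, and TAC heart 3 was barely above the highest sham heart. *Thbs1*, thrombospondin-1, was instead even, at 4.66, 7.97 and 4.75 CPM in sham hearts and 12.6, 14.9 and 13.3 CPM in TAC hearts. *Spp1*, osteopontin, was 0.194, 0.917 and 0.164 CPM and 1.804, 1.23 and 1.1 CPM, *Fn1*, fibronectin, was 41.2, 47.1 and 37.2 CPM and 165, 119.9 and 40.8 CPM, and *Tnc*, tenascin-C, was 0.6799, 0.367 and 1.31 CPM and 3.45, 9.6 and 0.5001 CPM, in the order sham then TAC hearts 1 to 3. *Fbln1*, fibulin-1, was lower in every TAC heart, at 101, 109.9 and 114 CPM against 139.7, 182 and 152 CPM.

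Matrix proteases and their inhibitors had a median of 0.70 over 21 genes (0.24 without TAC heart 1). At an unadjusted p under 0.05, 8 were higher and 1 lower, against 3.68% and 2.6% of all tested genes. *Timp1*, an inhibitor of matrix metalloproteinases, was 1.36, 2.57 and 2.37 CPM in sham hearts and 10.5, 5.55 and 3.001 CPM in TAC hearts 1 to 3 (unadjusted p = 0.0458). *Adamts8* was 0.583, 0.458 and 0.9 CPM and 2.12, 2.82 and 1.7 CPM, without overlap. *Mmp9*, also a neutrophil marker, was 1.36, 3.85 and 1.06 CPM and 0.863, 0.793 and 0.6001 CPM, highest in sham heart 2. Lysyl oxidases and small leucine-rich proteoglycans, which cross-link and space collagen fibrils, had a median of 0.41 over 18 genes, and 0.74 without sham heart 2 and 0.21 without TAC heart 1. *Lum*, lumican, was 44.1, 60.4 and 35.7 CPM in sham hearts and 124, 77.6 and 77.3 CPM in TAC hearts, and *Bgn*, biglycan, was 252, 274 and 243 CPM and 1096, 435 and 368 CPM. Neither overlapped between groups, while *Lox*, lysyl oxidase, did, at 7.77, 17.1 and 4.66 CPM and 71, 10.2 and 17.4 CPM.

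The TGF-beta family had a median of 0.16 over 21 genes (0.10 without TAC heart 1 and 0.25 without TAC heart 3). On the higher side 2 members had an unadjusted p under 0.05, against 3.68% of all tested genes. They were *Tgfbr2*, the type II receptor (0.50 ± 0.21), and *Inhbb*, an activin subunit (0.78 ± 0.33). *Tgfb2*, a ligand, was 16.5, 18.9 and 19.9 CPM in sham hearts and 23.1, 16.8 and 19.2 CPM in TAC hearts, with overlapping groups. The medians of TAC hearts 1 to 3 were 0.35, 0.14 and 0.09, a narrower range than in the matrix families.

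**Figure D3:**
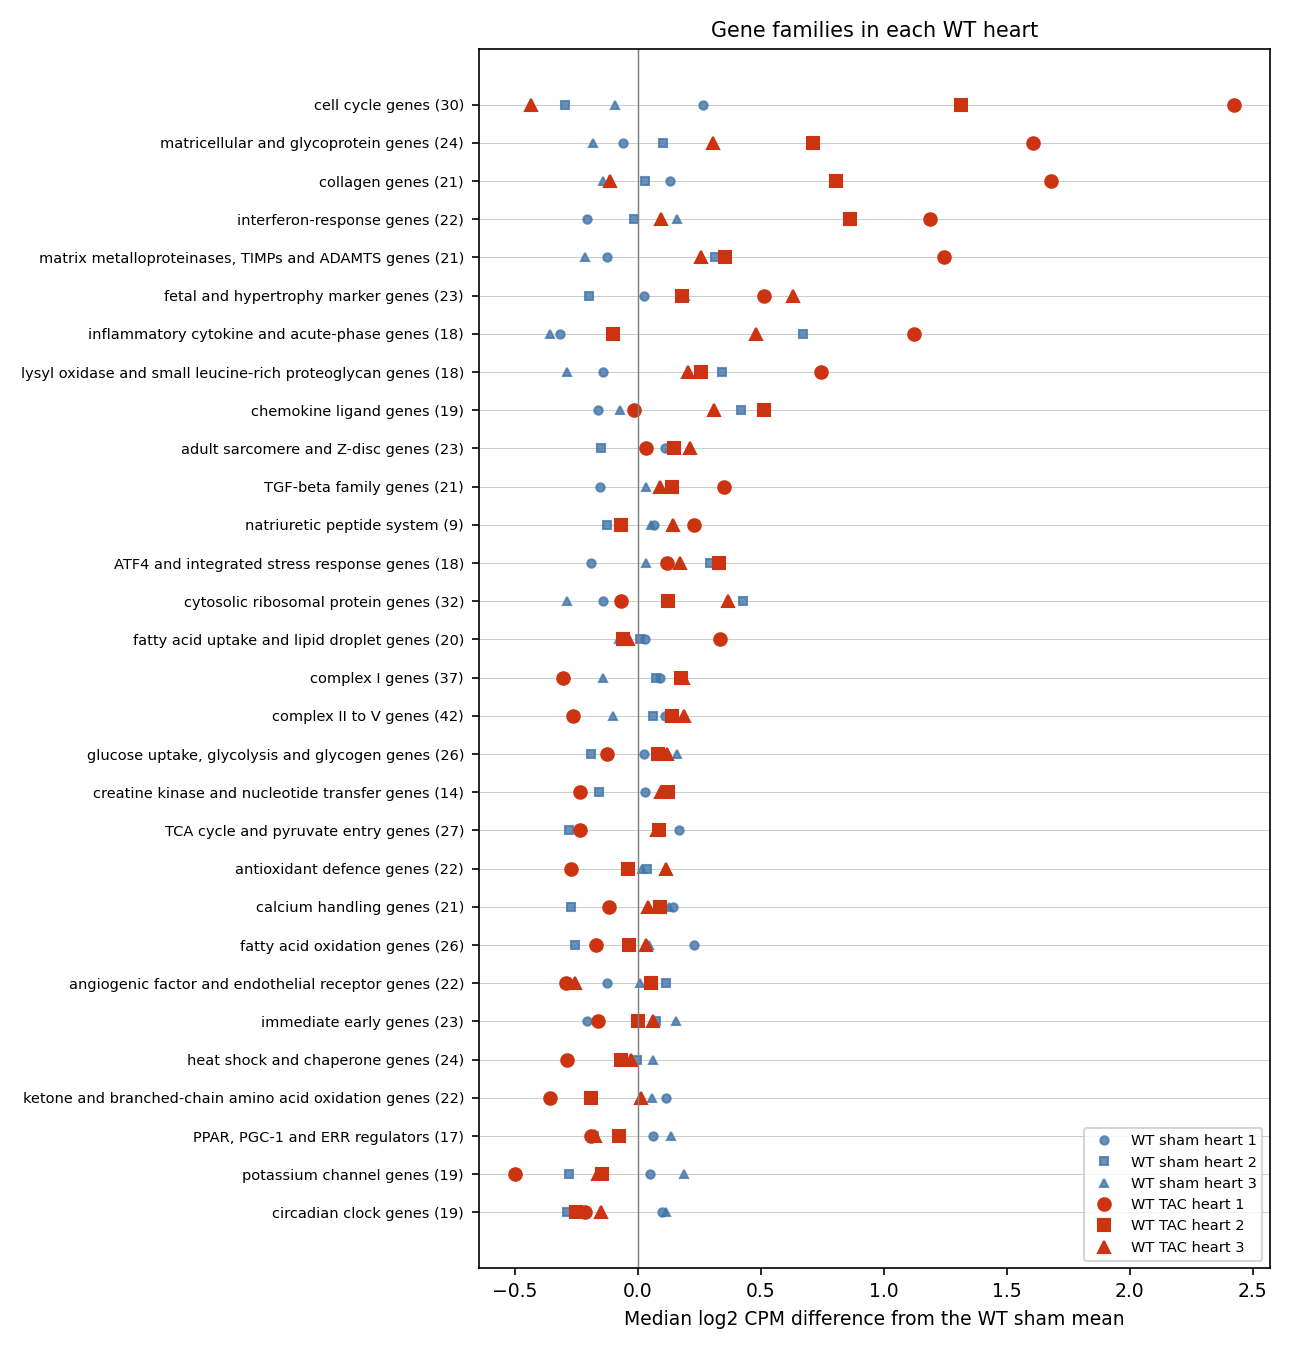
Median difference from the WT sham mean (log2 CPM) over the tested members of each of 30 gene families, in every sham heart (blue) and TAC heart (red), with the number of members in parentheses and families ordered by their median fold change. In the cell cycle, matricellular, collagen and interferon families the TAC hearts lie in the order 1, 2, 3 with heart 3 the nearest to the sham hearts or below them, whereas for the fetal and hypertrophy markers heart 3 lies highest.

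In the fit of all 12 libraries, proliferation genes had the largest median of the 30 families and the widest range of medians between TAC hearts. The median over 30 genes was 1.53, and it was 0.70 without TAC heart 1 and 0.98 with limma-trend. When only the 6 WT libraries were fitted it was 0.75, under the matricellular and collagen medians of 1.07 and 1.00 in that fit. It was 0.26 when only genes with at least 10 counts in every WT library were kept, under the 0.55 of the fetal and hypertrophy markers. That rule removes genes with fewer counts in any sham or TAC heart. The rank of this family thus depends on the filter and the libraries fitted. The per-heart medians were 2.42, 1.31 and -0.43 in TAC hearts 1 to 3, against 0.27, -0.29 and -0.09 in sham hearts 1 to 3. TAC heart 1 was above every sham heart for 21 genes, TAC heart 2 for 24 and TAC heart 3 for 4, against 31.7%, 23.6% and 22.2% of all tested genes, and TAC heart 3 was below every sham heart for 10, against 20.7% of all tested genes. *Mki67*, the proliferation marker Ki-67, measured 5.54, 0.733 and 1.72 CPM in sham hearts 1 to 3 and 38.5, 7.49 and 0.8002 CPM in TAC hearts 1 to 3 (log2 fold change 2.58 ± 1.34 (SE), edgeR adjusted p = 0.794). *Ccna2*, cyclin A2, measured 1.17, 0.825 and 1.06 CPM in sham hearts 1 to 3 and 24.3, 5.46 and 0.7002 CPM in TAC hearts 1 to 3 (log2 fold change 3.32 ± 1.24 (SE), edgeR adjusted p = 0.782). *Top2a*, topoisomerase II alpha, was 3.302, 0.367 and 1.06 CPM and 28.4, 6.52 and 0.8002 CPM, and the 3 genes shared the order TAC heart 1, then 2, with TAC heart 3 within or under the sham range. *Cdkn1a*, the inhibitor p21, differed in that TAC heart 3 was above all sham hearts, at 35.6, 84.4 and 30.8 CPM in sham hearts and 271, 59.9 and 105 CPM in TAC hearts. The red blood cell marker sum had the same order over the TAC hearts, and its part in this result was not tested.

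Interferon-response genes were higher in TAC hearts 1 and 2. All 22 tested had a fold change above 0, with a median of 0.83 (0.47 without TAC heart 1). On the higher side 7 had an unadjusted p under 0.05, against 3.68% of all tested genes. In 7 (31.8%) all TAC hearts lay above all sham hearts, against 4.7% of all tested genes. TAC heart 1 was above every sham heart for all 22 genes, TAC heart 2 for 18 and TAC heart 3 for 7, against 31.7%, 23.6% and 22.2% of all tested genes, with medians of 1.19, 0.86 and 0.10. *Ifit2* measured 20.5, 19.5 and 22.7 CPM in sham hearts 1 to 3 and 53.98, 33.1 and 26.3 CPM in TAC hearts 1 to 3 (log2 fold change 0.86 ± 0.28 (SE), edgeR adjusted p = 0.782). *Isg15*, a ubiquitin-like protein induced by interferon, was 3.79, 2.75 and 4.99 CPM in sham hearts and 11.7, 9.95 and 5.401 CPM in TAC hearts. For both genes TAC heart 1 was the highest and TAC heart 3 the lowest of the TAC hearts, still above every sham heart.

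Inflammatory cytokine and acute-phase genes had a median of 0.44 over 18 genes, which was 0.10 without TAC heart 1, 0.25 without sham heart 3, 0.80 without TAC heart 2 and 0.9 without sham heart 2, and the medians of TAC hearts 1 to 3 were 1.123, -0.10 and 0.48, while sham heart 2 reached 0.67. *Serpina3n*, an acute-phase protease inhibitor, overlapped between groups, at 23.8, 117 and 32.9 CPM in sham hearts 1 to 3 and 385, 33.6 and 90.7 CPM in TAC hearts 1 to 3. *Lcn2*, lipocalin-2, was 4.27, 47.8 and 3.03 CPM and 51.1, 4.76 and 20.2 CPM. For both, sham heart 2 was above TAC hearts 2 and 3 and the other sham hearts were not. Chemokine ligands had a median of 0.23 over 19 genes, and 0.64 without sham heart 2, 0.11 without TAC heart 2, 0.14 without sham heart 1 and 0.15 without sham heart 3. Besides *Ccl8*, *Ccl12* separated the groups, at 1.46, 1.28 and 1.47 CPM in sham hearts and 3.37, 4.58 and 2 CPM in TAC hearts.

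Immediate early genes, which are switched on within minutes of a stimulus, had members on both sides. The median over 23 genes was -0.09. At an unadjusted p under 0.05, 4 were higher and 5 lower, against 3.68% and 2.6% of all tested genes. *Myc* was 4.57, 3.94 and 4.83 CPM in sham hearts and 16.2, 7.66 and 6.502 CPM in TAC hearts, and *Jun* was 61.4, 59.3 and 77.4 CPM and 88.2, 109 and 108 CPM. *Fos*, the partner of Jun in the AP-1 factor, was lower, at 8.84, 11.4 and 21.4 CPM in sham hearts and 3.69, 3.88 and 4.501 CPM in TAC hearts 1 to 3 (edgeR adjusted p = 0.782). *Nr4a2* at 5.25, 3.12 and 3.6 CPM and 2.12, 1.94 and 1.8 CPM and *Klf2* at 143, 210.5 and 159 CPM and 127, 130.1 and 122 CPM were also lower in every TAC heart. None of these 5 genes had overlapping groups, but some of them, *Fos* and *Jun* included, were chosen after their values were seen. In the whole family all TAC hearts lay above all sham hearts for 4 members (17.4%) and below them for 3 (13%). The shares of all tested genes were 4.7% and 4.43%. In none of the 3 lower genes named here did TAC heart 3 lie apart from the other TAC hearts.

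Genes of the integrated stress response had a median of 0.14 over 18 genes, between 0.02 without sham heart 1 and 0.29 without sham heart 2, with *Pck2*, mitochondrial phosphoenolpyruvate carboxykinase, higher (0.58 ± 0.24) and *Aldh1l2*, a mitochondrial folate enzyme, lower (-0.91 ± 0.40). The 24 heat shock and chaperone genes had a median of -0.13 (-0.07 without TAC heart 1). At an unadjusted p under 0.05, 4 were lower and 1 higher, against 2.6% and 3.68% of all tested genes. *Pdia6*, a disulphide isomerase of the endoplasmic reticulum, was 81.01, 130.3 and 128 CPM in sham hearts and 64.02, 74.8 and 78.2 CPM in TAC hearts, and *Dnajb5*, a cytosolic co-chaperone, was 119, 111 and 130.2 CPM and 131, 187 and 163 CPM. The 22 antioxidant genes had a median of -0.05, with *Srxn1*, sulphiredoxin, lower (-0.73 ± 0.22) and *Gpx1*, glutathione peroxidase, higher (0.49 ± 0.19). All of these single-gene differences failed the adjusted threshold.

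At 1 week, the median log2 fold changes of the 9 metabolic families lay between -0.17 and 0.08. Fatty acid oxidation genes had a median of -0.08 over 26 genes. None had an unadjusted p under 0.05, against 3.68% higher and 2.6% lower of all tested genes. None was called by DESeq2, against 0.12% higher and 0.0442% lower of the genes it tested. None was without overlap between groups, against 4.7% above and 4.43% below of all tested genes. With shares this small, the lack of such members in a family of this size says little. *Cpt1b*, the carnitine palmitoyltransferase that admits fatty acids to mitochondria, was 835, 618 and 874 CPM in sham hearts and 779, 825 and 868 CPM in TAC hearts. *Cpt1a*, its liver isoform, had a log2 fold change of 0.22 ± 0.21, and *Etfa*, an electron carrier of this pathway, of -0.28 ± 0.21. The depth and the spread of these hearts leave intervals wider than these differences, so an equal level was not shown.

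Regulators of this programme leaned lower. Of 17 genes of the PPAR, PGC-1 and ERR group 16 had a fold change below 0, with a median of -0.17 (-0.10 without TAC heart 1 and -0.27 without sham heart 2) and medians of -0.19, -0.08 and -0.17 in TAC hearts 1 to 3, although sham heart 2 gave -0.18. *Ppara*, the nuclear receptor for fatty acids, was 111, 90.6 and 130.3 CPM in sham hearts and 84.02, 127 and 118 CPM in TAC hearts. *Ppargc1a*, the coactivator PGC-1alpha, was 159.9, 138 and 149 CPM and 145, 93.7 and 123 CPM, and *Esrra*, an oestrogen-related receptor, was 142, 136 and 173 CPM and 105, 138 and 132 CPM. The groups overlapped for each of these 3 genes. The 1 member above 0 was *Pparg*, the adipose receptor (0.47 ± 0.27).

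*Fabp3*, the fatty acid carrier that the study deletes in its other genotype, was 2849, 2432 and 2117 CPM in sham hearts and 3064, 2887 and 2904 CPM in TAC hearts, without overlap (log2 fold change 0.26 ± 0.15 (SE), edgeR adjusted p = 0.802). Fatty acid uptake and lipid droplet genes had a median of 0.08 over 20 genes. *Angptl4*, which inhibits lipoprotein lipase, was 8.16, 4.03 and 4.17 CPM and 42.99, 8.19 and 2 CPM in sham and TAC hearts 1 to 3, and *Cidea*, a lipid droplet protein, was 29.7, 38.5 and 32.2 CPM and 42.2, 37.8 and 41.9 CPM. *Pdk4*, the kinase that closes pyruvate dehydrogenase, was 338, 117 and 134 CPM and 1651, 223 and 181 CPM (log2 fold change 1.80 ± 0.73 (SE), edgeR adjusted p = 0.782). *Angptl4* and *Pdk4* shared a single extreme value in TAC heart 1, while TAC hearts 2 and 3 lay in or near the sham range.

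Respiratory chain genes divided the TAC hearts. The 37 complex I genes had a median fold change of 0.03. TAC heart 1 was below every sham heart for 27 of them, against 30.8% of all tested genes. TAC heart 2 was instead above every sham heart for 19 and TAC heart 3 for 23, against 23.6% and 22.2% of all tested genes. Few members lay on the other side, 0 above in TAC heart 1, 1 below in TAC heart 2 and 0 below in TAC heart 3. The shares of all tested genes in these positions were 31.7%, 23.9% and 20.7%. The medians were -0.30, 0.17 and 0.18 in TAC hearts 1 to 3 and 0.09, 0.07 and -0.14 in sham hearts 1 to 3. The 42 genes of complexes II to V gave -0.27, 0.14 and 0.19, with 24 below every sham heart in TAC heart 1 and 28 above in TAC heart 3, against 30.8% and 22.2% of all tested genes. *Ndufa1*, a small subunit of complex I, was 133.2, 139 and 111 CPM in sham hearts and 73.2, 102 and 134 CPM in TAC hearts, and *Ndufa11* was 292, 264 and 277 CPM and 269, 355 and 338 CPM. *Cycs*, cytochrome c, was 309, 269 and 242 CPM and 309, 377 and 344 CPM. The row named *Atp5a1* was 2.04, 1.19 and 4.83 CPM and 1.65, 0 and 0 CPM, far under *Ndufa1*, *Ndufa11* and *Cycs*, and the cause of this low level was not tested.

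TCA cycle and pyruvate entry genes had a median of -0.05 over 27 genes, with medians of -0.24, 0.09 and 0.08 in TAC hearts 1 to 3, and *Sucla2*, a subunit of succinyl-CoA synthetase, had a log2 fold change of -0.26 ± 0.20. Ketone and branched-chain amino acid oxidation genes had a median of -0.15 over 22 genes, of which 18 were below 0. TAC heart 1 was below every sham heart for 17 of them, TAC heart 2 for 10 and TAC heart 3 for 1, against 30.8%, 23.9% and 20.7% of all tested genes. The median was -0.06 without TAC heart 1 and -0.25 without TAC heart 3, and sham heart 2, at -0.20, was as low as TAC heart 2 in medians of -0.36, -0.19 and 0.01 over TAC hearts 1 to 3. *Bdh1*, which oxidises the ketone body beta-hydroxybutyrate, went the other way, at 114, 86.1 and 133.3 CPM in sham hearts and 110.5, 164 and 180 CPM in TAC hearts.

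Glucose uptake, glycolysis and glycogen genes had a median of 0.02 over 26 genes, and 5 of them (19.2%) had all TAC hearts above all sham hearts, against 4.7% of all tested genes. Unadjusted p was under 0.05 for 3 higher members and 1 lower one, against 3.68% and 2.6% of all tested genes. *Slc2a1*, the basal glucose transporter GLUT1, was 26.3, 17.6 and 36.4 CPM in sham hearts and 25.2, 26.3 and 30.01 CPM in TAC hearts, and *Slc2a4*, the insulin-responsive GLUT4, was 625, 513 and 737 CPM and 379, 563 and 549 CPM. *Hk2*, a hexokinase, was 328, 240 and 392 CPM and 121, 340.4 and 285 CPM, lowest in TAC heart 1. *Pgam2*, the muscle phosphoglycerate mutase, was 570, 490.5 and 560 CPM and 642, 751 and 692 CPM, and *Phkg1*, the catalytic subunit of phosphorylase kinase in muscle, was 26.4, 16.6 and 22.3 CPM and 10.04, 11.6 and 4.101 CPM, the former without overlap on the higher side and the latter on the lower side. Creatine kinase and nucleotide transfer genes had a median of -0.02 over 14 genes. *Ckm*, muscle creatine kinase, was 2336, 1878 and 2401 CPM and 1910, 2980 and 2238 CPM, *Ckb*, the fetal brain-type isoform, was 25.2, 24.9 and 28.1 CPM and 30.9, 43.4 and 28.4 CPM, and *Slc6a8*, the creatine transporter, had a log2 fold change of -0.33 ± 0.17.

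Circadian clock genes had a median of -0.25 over 19 genes, with -0.21, -0.25 and -0.15 in TAC hearts 1 to 3, and sham heart 2 at -0.29 was as low as the TAC hearts. The median was -0.11 without TAC heart 1 and -0.115 with limma-trend. *Nr1d2* and *Per3*, repressors of the clock loop, had log2 fold changes of -0.39 ± 0.19 and -0.53 ± 0.26. The hour of collection is not given in the sources used here. Angiogenic factors and endothelial receptors had a median of -0.08 over 22 genes. *Angpt1*, the ligand of the Tie2 receptor, was 70.3, 39.4 and 53.4 CPM in sham hearts and 29.6, 29.6 and 33.8 CPM in TAC hearts, and its receptor *Tek* was 68.1, 104 and 69.96 CPM and 63.5, 66.8 and 67.3 CPM, both lower in every TAC heart. Cytosolic ribosomal protein genes had a median of 0.11 over 32 genes, *Rpl3* (0.40 ± 0.20) and *Rps23* (0.35 ± 0.30) had the smallest unadjusted p, and the family varied as much among sham hearts, with medians of -0.14, 0.43 and -0.29, as among TAC hearts, with -0.07, 0.12 and 0.37. Ribosomal protein genes have many near-identical pseudogenes, so their counts are uncertain.

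Macrophage and monocyte markers were higher in every TAC heart than in sham hearts 1 and 3, as a sum. All 16 had a fold change above 0, with a median of 0.88. On the higher side 10 had an unadjusted p under 0.05, against 3.68% of all tested genes. Their sum was 392, 805 and 427 CPM in sham hearts 1 to 3 and 1085, 839 and 728 CPM in TAC hearts 1 to 3. Sham heart 2 lay between the TAC hearts, so the groups overlapped. *Itgam*, the integrin CD11b, was 4.66, 12.2 and 5.48 CPM in sham hearts and 17.5, 19.2 and 14.3 CPM in TAC hearts, and *C1qb*, a complement chain of tissue macrophages, was 50.4, 88.4 and 54.8 CPM and 134, 107 and 87.8 CPM. *Ly6c2*, of inflammatory monocytes, was near the floor in most hearts (0, 1.47 and 0.818 CPM and 0.392, 3.88 and 0.8002 CPM). The 3 tested T and NK cell markers were highest in TAC heart 2, with sums over the 11 listed in the table of 2.82, 4.86 and 3.6 CPM in sham hearts 1 to 3 and 5.49, 16.7 and 5.601 CPM in TAC hearts 1 to 3, and *Cd8a* was 0.777, 0.275 and 0.409 CPM and 1.02, 3.44 and 1.1 CPM and *Nkg7* 0.194, 0.642 and 0.491 CPM and 0.392, 3.44 and 0.9002 CPM.

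Fibroblast markers summed to 1954, 3458 and 1828 CPM in sham hearts 1 to 3 and 3478, 2637 and 3267 CPM in TAC hearts 1 to 3, and activated fibroblast and myofibroblast markers to 162, 142 and 231 CPM in sham hearts 1 to 3 and 515, 304 and 154 CPM in TAC hearts 1 to 3. The former sum was high in sham heart 2 and in all TAC hearts. The latter sum had the order TAC heart 1, then 2, with TAC heart 3 inside the sham range. The member medians of the latter list differed from this, at 0.896, 0.915 and 0.346 in TAC hearts 1 to 3. Sham hearts 1 to 3 gave 0.027, -0.204 and 0.166, so the median of TAC heart 3 lay above the sham range. All TAC hearts lay above all sham hearts for 5 of the 10 members (50%), against 4.7% of all tested genes. *Cthrc1*, a marker of activated fibroblasts, was 0.194, 0 and 0 CPM in sham hearts and 2.43, 2.11 and 0.2 CPM in TAC hearts, so that the sham hearts and TAC heart 3 were under the floor. It is counted among these 5 members only through 0.2 CPM in TAC heart 3 against 0.194 CPM in sham heart 1. Endothelial markers had a median of 0.10. Neutrophil markers summed to 10, 53.99 and 11.7 CPM in sham hearts 1 to 3 and 13.5, 13.7 and 25.7 CPM in TAC hearts 1 to 3, of which *Ngp* was 0.0971, 5.32 and 0.164 CPM and 0, 0.528 and 1.6 CPM. All 7 red blood cell markers had a fold change above 0 but were lower than in every sham heart in TAC heart 3, among them *Slc4a1* (0.874, 0.458 and 0.982 CPM and 4.94, 0.793 and 0 CPM). *Car3*, of adipocytes, was 1.26, 0.0917 and 0.982 CPM and 0.392, 0.4404 and 0.2 CPM. The hepatocyte markers *Alb* and *Fgb* were at 0 in all 6 hearts.

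**Figure D4:**
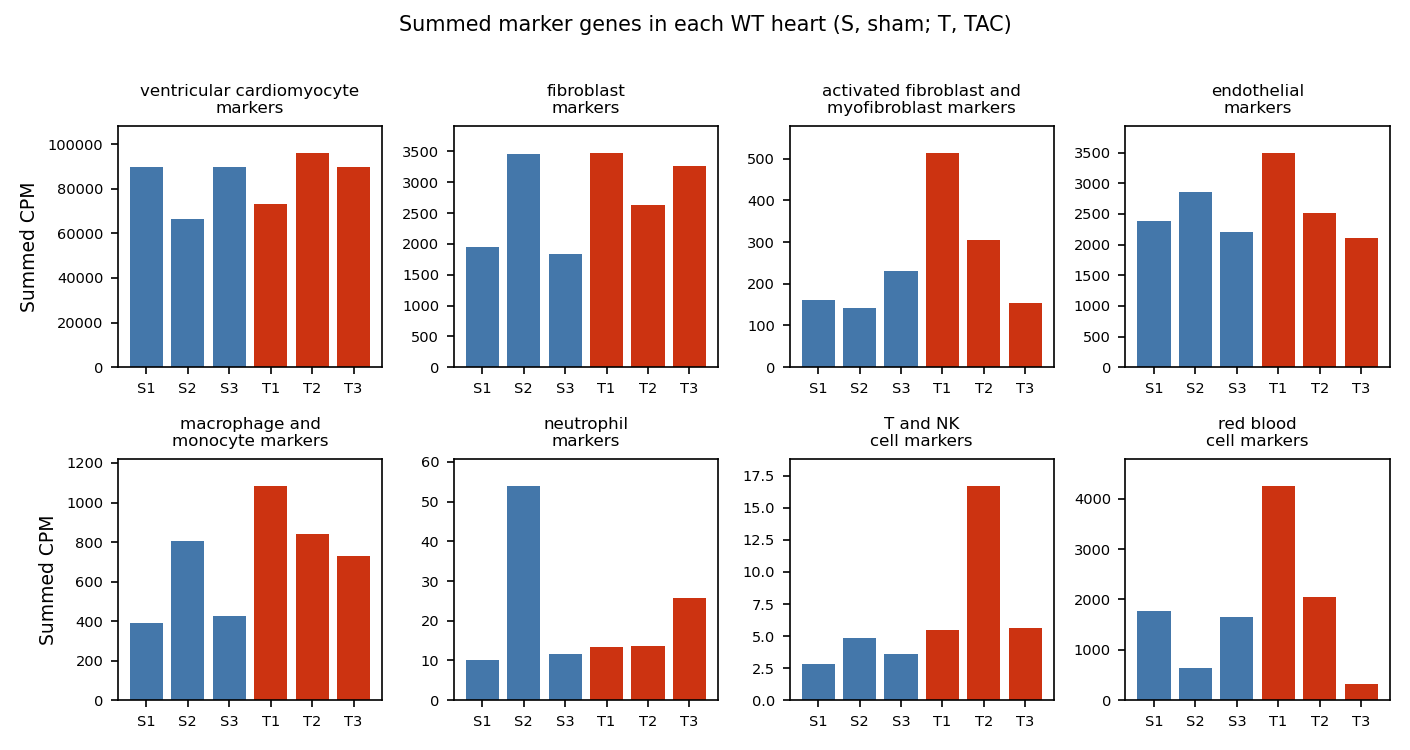
Summed CPM of the marker genes of 8 cell types in WT sham hearts 1 to 3 (S1 to S3, blue bars) and WT TAC hearts 1 to 3 (T1 to T3, red bars), each axis starting at 0. Sham heart 2 has the highest neutrophil sum and a macrophage sum near those of the TAC hearts, and activated fibroblast and red blood cell sums are highest in T1.

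The 3 TAC hearts differed from the sham hearts by unequal amounts. The root mean square log2 difference over all tested genes was 0.549 to 0.641 between sham hearts, 0.771 to 0.831 between TAC heart 1 and the sham hearts, 0.601 to 0.67 for TAC heart 2 and 0.572 to 0.595 for TAC heart 3. TAC heart 3 was thus no farther from the sham hearts than these were from each other. A log2 difference of at least 1 above the sham mean was found for 1037 genes in TAC heart 1, 479 in TAC heart 2 and 262 in TAC heart 3, and of at least 1 below it for 424, 293 and 314 genes. Without sham heart 2, TAC heart 3 was above the remaining sham hearts for 5010 genes in place of 3132 and below them for 4823 in place of 2921. Leaving out any 1 sham heart gave 4164 to 5010 genes above and 3799 to 4823 below, since fewer hearts bound the range.

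Among the 662 genes with all TAC hearts above all sham hearts, the farthest was TAC heart 1 for 390 genes (58.9%), TAC heart 2 for 156 and TAC heart 3 for 116. The order TAC heart 1, 2, 3 held for 227 of them (34.3%), and the medians of the 3 hearts were 0.658, 0.46 and 0.395 (log2). Among the 625 genes with all TAC hearts below, TAC heart 1 was the farthest for 323 (51.7%), TAC heart 2 for 178 and TAC heart 3 for 124, with medians of -0.455, -0.32 and -0.285. These genes are chosen by where the same 3 hearts lie, so the counts describe them and support nothing further.

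By family, the order was not the same for all processes. Collagen, matricellular, cell cycle and interferon-response genes had the order TAC heart 1, 2, 3, with TAC heart 3 at -0.11, 0.31, -0.43 and 0.10. Fetal and hypertrophy markers had the order TAC heart 3, 1, 2 in their medians, with TAC heart 3 close to TAC heart 1. TAC heart 3 was above every sham heart for 17 of these 23 genes, TAC heart 1 for 16 and TAC heart 2 for 8. The shares of all tested genes were 22.2%, 31.7% and 23.6% in the same order of hearts. Of the single markers described above, *Nppb*, *Acta1*, *Nppa*, *Ankrd1* and *Cilp* were highest in TAC heart 1 and *Myh7* in TAC heart 3. TAC heart 3, whose collagen median lay within the range of the sham hearts and whose cell cycle median lay below it, had *Nppb* and *Ier5* between or near the other TAC hearts and *Acta1* near TAC heart 2, above every sham heart for all 3 genes. With 3 hearts per group no test of the order was made, and degree of constriction, heart weight and pressure gradient of each heart are not given in the sources used here.

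In F3-KO hearts *Fabp3* was still measured, at 1040 to 1089 CPM after sham surgery and 1002 to 1143 CPM after TAC, below the lowest WT heart at 2117 CPM. The labels do not say which part of the gene was deleted. These values are of RNA and do not measure protein, and the study reports by western blot that FABP3 protein was lost from F3-KO hearts. The medians of the F3-KO TAC hearts 1 to 3 against their own sham mean were 1.82, 2.25 and -0.13 for collagens, 2.96, 1.82 and -0.44 for cell cycle genes, 0.81, 2.10 and 0.47 for fetal and hypertrophy markers, 1.51, 0.20 and 1.34 for interferon-response genes and -0.56, -1.04 and -0.16 for fatty acid oxidation genes. One of these 3 hearts, the third, also had collagen and cell cycle medians below 0. In the test of the difference of the TAC effect between genotypes edgeR called 0 of 14094 genes (0%), with 632 at an unadjusted p under 0.05 and a lowest adjusted p of 0.652, while DESeq2 called 6. The interaction (F3-KO minus WT, log2) was -0.75 for *Nppb* and -0.75 for *Acta1*, with edgeR adjusted p of 0.954 and 0.976. For *Nppb* and *Acta1*, a difference from the WT response was thus not detected in this design of 3 hearts per group.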

How the data were processed

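Hearts were grouped by the genotype and surgery in their labels. According to the supplementary methods and the submitters' processing notes, reads were cleaned with SOAPnuke and mapped with HISAT2 2.0.4 and STAR 2.3.0, and mm8 and mm9 are both named as builds. The authors deposited estimated counts per gene, not normalized, of which 40.6% were not whole, and the counting tool is not given in the sources used here. Counts of paralogs may be split between copies. The 11 per-heart tables compared were identical to the joint table. The separate table of WT sham heart 2 breaks off early and was not used, and that heart's values come from its column of the joint table.

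Counts were rounded, filtered with edgeR's filterByExpr (4 groups, at least 10 counts), which removed 5214 genes holding 0.0773% of the counts, and fitted with edgeR 4.0.16 (quasi-likelihood, TMM, 12 libraries, 8 residual degrees of freedom) in R 4.3.3. DESeq2 1.42.0 and limma 3.58.1 were alternatives, with size factors, filters, the 6 WT libraries alone, a replicate block, other thresholds and leaving out each heart, and DESeq2 with each heart left out was added after seeing the data. The plan assumed whole-number counts, and the tests were checked on simulated data. CPM values are TMM-normalized. Family medians of single hearts used log2 CPM with a prior count of 2, and marker sums were scaled in the same way as single genes. Floors cover counting error only. Same-numbered sham and TAC hearts did not deviate together.

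The 30 families and 17 marker lists (818 genes written, 814 in the table, 760 tested) and the members were chosen with earlier results of these data known. Genes named are a set of 28 markers, the 2 members with the smallest unadjusted p in each family, the 2 largest fold changes of each marker list with a median beyond 0.5, and genes chosen after their values were seen. Some genes that these rules name are not reported here.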

Additional observations from a re-analysis of the deposited data

Results flagged for a closer look

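In 10 of the named genes every WT TAC heart lay on one side of the WT sham mean and every F3-KO TAC heart on the opposite side of the F3-KO sham mean. Of the named genes, 28 came from the fixed set, 52 from the family rule and 10 from the marker rule. A further 17 were DESeq2 calls and 19 others were chosen after their values were seen. Many were thus picked for their WT values, so the WT part of the pattern was partly met by selection. The share of all tested genes with this pattern was not computed. For all 10 the edgeR test of the difference gave an adjusted p of 0.954, and DESeq2 called 3 of them, *Rrad*, *Arrdc2* and *Fam117b*, at adjusted p of 0.00544, 0.00428 and 0.00544. These 3 are also among the genes that DESeq2 called in the WT comparison. The test of the difference contains that same WT difference, so this overlap is partly built in and supports nothing further. *Rrad* differed from the sham mean by -1.83, -1.48 and -1.05 (log2) in WT TAC hearts 1 to 3 and by 0.11, 0.89 and 0.34 in F3-KO TAC hearts 1 to 3, an interaction of 1.89 (F3-KO minus WT). *Arrdc2*, an arrestin-domain protein, differed by 1.83, 1.04 and 1.00 and by -1.33, -1.18 and -0.45, an interaction of -2.27. *Fam117b* differed by 1.68, 0.76 and 1.15 and by -0.34, -0.20 and -0.22, an interaction of -1.50. In all 3 genes the WT values were far from 0, and for *Fam117b* the F3-KO values were close to it.

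The other 7 had smaller or less even differences. The interaction was 0.858 for *Phka1*, -1.04 for *Kcna5*, -0.911 for *Cycs*, -0.701 for *Dnajb5*, -0.527 for *Cidea*, -0.491 for *Cpt1b* and 4.39 for *Car3*, an adipocyte marker near the floor in WT hearts. For *Cpt1b* the WT TAC hearts were only 0.02, 0.10 and 0.18 above the sham mean, less than the spread of the sham hearts. Groups of 3 hearts are too small for a test of single outlying hearts.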

How the results depend on the processing

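With edgeR, genes called higher in WT TAC hearts numbered 0, and 1 (*Nppb*) with limma-trend, without a low-count filter, with at least 10 counts in every WT library, with the replicate block or at an adjusted p under 0.1, and 19 with DESeq2. Genes called lower numbered 0, and 7 with DESeq2. At an unadjusted p under 0.05 the counts were 518 and 367. Leaving out 1 heart gave 0 to 1 genes higher and 0 to 1 lower with edgeR (1 higher without TAC heart 2, 1 lower without sham heart 1), and 10 to 72 higher and 3 to 20 lower with DESeq2, an alternative added after seeing the data. DESeq2 called 6 genes in the genotype difference. The replicate numbers do not pair the hearts (correlations of deviations of same-numbered hearts 0.0919, -0.141 and -0.0201), and the block changed no other call among the genes named.

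Of the family medians, leaving out 1 heart moved 6 beyond the spread between hearts: natriuretic peptide system -0.16 to 0.24, matricellular genes 0.44 to 1.33, matrix proteases 0.24 to 0.93, lysyl oxidases and proteoglycans 0.21 to 0.74, chemokine ligands 0.11 to 0.64 and angiogenic genes -0.301 to 0.026. The cell cycle median was 0.26 with at least 10 counts in every WT library. Genes of TAC heart 3 above the sham hearts ranged from 4164 to 5010 and below them from 3799 to 4823 when a sham heart was left out, since fewer hearts bound the range.

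Leaving out 1 heart turned the sign of the log2 fold change of 14 genes, none of them called with all hearts (without 1 heart, DESeq2 called *Lcn2* without sham heart 2 and *Angptl4* without TAC heart 3), with ranges of -0.67 to 2.06 for *Myh7*, -0.28 to 0.18 for *Myh6*, -0.034 to 0.20 for *Tgfb2*, -0.45 to 0.006 for *Kcnip2*, -0.14 to 0.15 for *Ppara*, -0.053 to 0.18 for *Cpt1b*, -0.21 to 0.31 for *Slc2a1*, -0.089 to 0.24 for *Ckm*, -0.071 to 0.39 for *Cpt1a*, -0.072 to 2.24 for *Angptl4*, -0.38 to 1.96 for *Ly6c2*, -2.81 to 2.29 for *Ngp*, -0.90 to 1.88 for *Slc4a1* and -0.56 to 2.80 for *Lcn2*. *Myh6* was also 0.026 with limma-trend and 0.022 with the block. With 3 hearts per group the spread between hearts, more than depth, bounds what can be called, and genes near the floor of 3 counts have no stable fold change.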

Other observations

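Several further genes were called by DESeq2 and not by edgeR, and they are given here because of these values. *Ankrd23*, a stretch-responsive relative of *Ankrd1*, was 313, 235 and 333 CPM in sham hearts 1 to 3 and 619.5, 462 and 686 CPM in TAC hearts 1 to 3. *Slc38a2*, a transporter of neutral amino acids, was 223, 211 and 276 CPM and 416, 310.3 and 405 CPM. *Nuak1*, a kinase related to AMPK, was 45.9, 39.4 and 48.9 CPM and 75.2, 64.03 and 80.7 CPM. In each of them TAC heart 2 was the lowest TAC heart and still above every sham heart. *Cmklr1*, the chemerin receptor of macrophages, was 16.7, 26.7 and 18.2 CPM and 41.8, 37.1 and 34.6 CPM, and *Arrdc2* was 31.5, 19.3 and 17.8 CPM and 79.2, 45.6 and 44.4 CPM. *Rnf128*, a ubiquitin ligase, was lower, at 96.5, 109 and 105 CPM in sham hearts and 71.6, 75.7 and 81.6 CPM in TAC hearts, with a spread within each group smaller than the gap between them. The predicted gene BGIG10090_47698 was 0.777, 1.74 and 2.54 CPM and 20.6, 8.46 and 10.4 CPM, and BGIG10090_47919 was 286, 257 and 262 CPM and 386, 332 and 369.8 CPM.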
